A study of Homo sapiens with 6 samples.

Results

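The HLA class II genes, with their transactivator CIITA and the invariant chain gene CD74, were followed in NOZ-R and NOZ cells. The set was chosen by name and holds 10 genes of the 63140 in the deposited counts table: CIITA, CD74, HLA-DRA, HLA-DRB1, HLA-DPA1, HLA-DPB1, HLA-DQB1, HLA-DMA, HLA-DMB and HLA-DOA. NOZ-R is a gallbladder cancer line resistant to gemcitabine, a nucleoside analogue, and was derived from NOZ by raising the drug dose step by step. NOZ is the parental human line. There were 3 poly-A RNA libraries of each, NOZ-R and NOZ, and the comparison asked which transcripts differ in the resistant line. The sources used here do not state whether NOZ-R is a single clone, which doses were used or whether drug was present at harvest.

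Class II molecules are heterodimers of an alpha and a beta chain that carry peptides from endocytosed proteins to the cell surface for CD4+ T cells. They are known from dendritic cells, macrophages and B cells, and interferon-gamma can induce them in epithelial cells, tumour cells included. Their promoters carry an X box and a Y box, bound by the RFX complex, CREB family factors and NF-Y, and transcription depends on CIITA, which does not bind DNA itself but is recruited by these proteins. CD74 occupies the groove of new class II dimers and leads them to endosomes, where proteases trim it and HLA-DM exchanges its last fragment for peptide. HLA-DO restrains HLA-DM.

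The X and Y boxes are shown because they are known elements of class II promoters and the address at which CIITA acts. Promoters from RefSeq (GRCh38.p14, 250 bases before and 50 after the gene start) were found for 8 of the 10 genes. CIITA and HLA-DRA had none and were not searched. The pair searched for was an X box core (AGNNACNGA) followed on the same strand by a Y box core 10 to 30 bases later. The Y box core is ATTGG, the reverse complement of CCAAT. The pair was present in 4 of these 8, against 0.293% of the 35116 promoters searched. It was not found in CD74, HLA-DPA1, HLA-DPB1 or HLA-DMB. In the windows below, taken upstream of the gene start and written 5′ to 3′ on the gene's strand, the first run of capitals is the X box match and the second is the Y box match.
HLA-DRB1 (chr6:32589878-32589939, minus strand): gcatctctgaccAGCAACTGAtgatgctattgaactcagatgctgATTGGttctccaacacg
HLA-DQB1 (chr6:32666729-32666790, minus strand): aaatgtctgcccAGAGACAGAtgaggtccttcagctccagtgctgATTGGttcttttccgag
HLA-DMA (chr6:32953160-32953222, minus strand): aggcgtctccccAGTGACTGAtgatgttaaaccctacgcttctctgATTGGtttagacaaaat
HLA-DOA (chr6:33009642-33009704, minus strand): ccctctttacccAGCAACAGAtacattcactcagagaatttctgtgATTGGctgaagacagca
HLA-DRB5 (chr6:32530361-32530422, minus strand): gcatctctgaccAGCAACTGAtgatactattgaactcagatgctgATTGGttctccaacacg
HLA-DQA1 (chr6:32637292-32637354, plus strand): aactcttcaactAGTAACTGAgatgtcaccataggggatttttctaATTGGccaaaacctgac

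Both boxes were separated by 24 bases in HLA-DRB1, HLA-DQB1 and HLA-DRB5 and by 25 bases in HLA-DMA, HLA-DOA and HLA-DQA1. The windows of HLA-DRB1 and its neighbour HLA-DRB5 were identical at 61 of 62 bases, whereas those of HLA-DRB1 and HLA-DQB1 were identical at 40 of 62. Over both strands and every listed promoter of these 8 genes, 6 genes held the X box core alone or with the Y box core (15.3% of all promoters), 7 held the Y box core (34.6%), and 4 held the ISRE-like pair GAAANNGAA (8.11%). None of the 8 held the octamer ATTTGCAT (1.77% of all promoters) or the GAS core TTCNNNGAA (7.66%), in a window that does not cover alternative starts beyond those in the table. A match to these letters is a description and does not show binding.

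**Figure D1:**
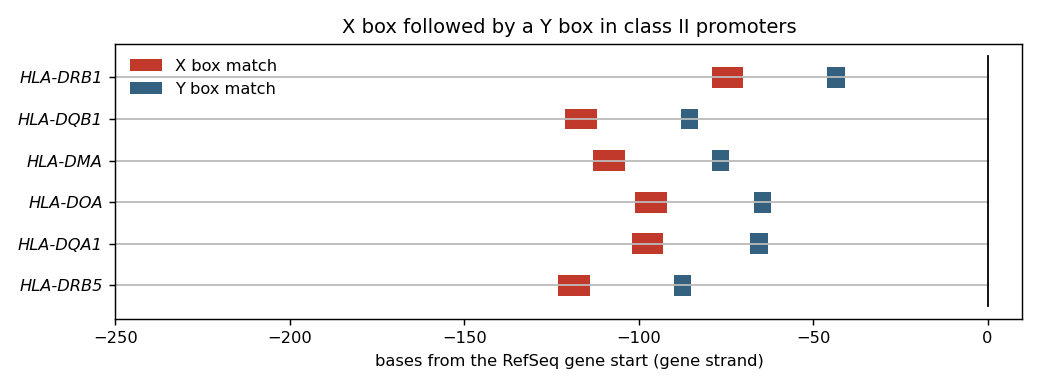
Positions of the X box and Y box matches relative to the RefSeq gene start, in bases on the gene's strand, for the 6 class II promoters that hold both in this order. The X box starts between 79 and 123 bases before the gene start, and the Y box follows it after 24 or 25 bases in each promoter.

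Library totals ran from 15661532 to 18855409 counts in NOZ-R and from 14136037 to 19244923 counts in NOZ. Of 14386 genes with enough counts to be tested, 60.2% passed edgeR's quasi-likelihood test at an adjusted p of 0.05, with 30.4% higher and 29.8% lower in NOZ-R. In 32.9% of the tested genes every NOZ-R library lay above every NOZ library. Epithelial markers fit the label of a carcinoma line in both lines, with KRT8 at 1125 CPM (counts scaled to the effective library size) in NOZ-R and 947.6 CPM in NOZ, while CDH1 was low in both, at 0.289 CPM in NOZ-R and 1.03 CPM in NOZ. NOZ replicate 2 stood apart from the other NOZ libraries, with a mean chi-square per gene of 11.5 and 9.99 against NOZ replicates 1 and 3, compared with 2.19 between those. Separate cultures are not stated for the replicates in the labels, and the p-values therefore cover the spread among these libraries, which may be technical.

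Transcripts of the class II pathway were more abundant in NOZ-R than in NOZ from the transactivator down to the peptide-loading genes. The increase was 2.44-fold for CIITA, 3.42-fold for CD74 and 5.85-fold for HLA-DRA, and HLA-DPA1 and HLA-DRB1, both with fewer than 10 counts in each NOZ library, were 16.9-fold and 18.1-fold higher. Of the 10 genes, 7 had enough counts to be tested and all 7 passed in the upward direction with no overlap between the lines, beside 30.4% of all tested genes called higher and 32.9% without overlap. HLA-DRB1, HLA-DPA1 and HLA-DMB reached the count filter in NOZ-R alone, so for them a difference was built into the filter and the count of 7 is not support in itself. The other 4, CIITA, CD74, HLA-DRA and HLA-DMA, reached it in every library of both lines. In bulk RNA a larger share of cells expressing a gene and more RNA per cell cannot be told apart.

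**Figure D2:**
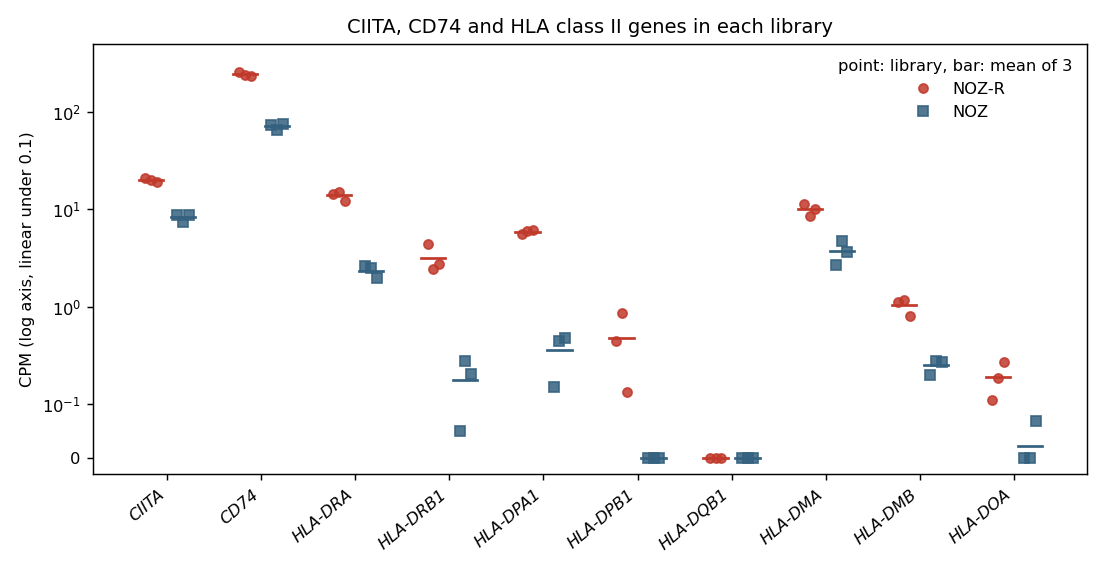
Abundance of the 10 genes in each library, in CPM scaled with TMM factors, on an axis that is logarithmic above 0.1 and linear below, with NOZ-R left of NOZ, points for libraries and bars for the mean of 3. Except for HLA-DQB1, which is at 0 throughout, the NOZ-R points of each gene lie above its NOZ points.

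CIITA (chromosome 16, 10866222 to 10943021, GRCh38), the master regulator of class II transcription, measured 20.9, 20.2 and 19.3 CPM in NOZ-R replicates 1 to 3, against 8.67, 7.41 and 8.65 CPM in NOZ replicates 1 to 3. The lines did not overlap and the spread within each was small. The log2 fold change was 1.29 ± 0.105 (± SE, adjusted p = 1.86e-07 by edgeR). CIITA starts from several alternative promoters, of which one answers to interferon-gamma, and gene-level counts do not tell their transcripts apart. In the GENCODE 29 annotation 12.4% of its exonic bases are shared with models on the opposite strand, among them DEXI, whose counts summed to 339 over NOZ-R and 333 over NOZ. A further 11.5% is shared with a model on the same strand that had 0 counts.

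CD74 (chromosome 5, 150401637 to 150412929), the invariant chain and also a surface receptor for the cytokine MIF, measured 256.2, 239.8 and 236.2 CPM in NOZ-R, against 74.2, 65.7 and 74.4 CPM in NOZ. Every NOZ-R library was more than 3 times as high as every NOZ library. The log2 fold change was 1.77 ± 0.0662 (± SE, adjusted p = 7.19e-11 by edgeR). No exonic base and no 50-base stretch of CD74 is shared with another gene model, so its counts are the least ambiguous of the set together with those of HLA-DRA.

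Among the classical chains, HLA-DRA (chromosome 6, 32439842 to 32445046), the alpha chain of HLA-DR, measured 14.3, 15.2 and 12.1 CPM in NOZ-R, against 2.59, 2.49 and 1.96 CPM in NOZ. The lowest NOZ-R library was above the highest NOZ library, and the log2 fold change was 2.55 ± 0.155 (± SE, adjusted p = 9.96e-09 by edgeR). Of all tested genes, 3.08% were called higher with a log2 fold change of at least 2.5.

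HLA-DRB1 (chromosome 6, 32578769 to 32589848), the main partner of HLA-DRA, had 80, 39 and 41 counts in NOZ-R, against 1, 5 and 3 counts in NOZ. NOZ-R replicate 1 was the highest of its line and NOZ replicate 1 the lowest of the other. The means were 3.19 CPM ± 1.07 in NOZ-R and 0.176 CPM ± 0.116 in NOZ (SD, n = 3 each), or 4.18 ± 0.453 on the log2 scale (± SE, adjusted p = 2.95e-06 by edgeR). With 9 counts over the NOZ libraries, the ratio of summed counts was 19.1 (95% counting interval, 9.82 to 42.6). In the reference transcripts, 9.92% of its distinct 50-base stretches occur in another gene, mostly HLA-DRB5. The 5 genes named HLA-DRB summed together had a log2 fold change of 3.89 (adjusted p = 4.48e-06 by edgeR).

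HLA-DPA1 (chromosome 6, 33064569 to 33080775), the DP alpha chain, had 102, 96 and 91 counts in NOZ-R, against 3, 8 and 7 counts in NOZ. The NOZ-R libraries were within a narrow band, at 5.89 CPM ± 0.235, and NOZ was at 0.355 CPM ± 0.179 (SD, n = 3 each). The log2 fold change was 4.08 ± 0.284 (± SE, adjusted p = 3.91e-08 by edgeR).

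HLA-DPB1 (chromosome 6, 33075926 to 33087201), the DP beta chain, had 8, 14 and 2 counts in NOZ-R and 0 counts in each NOZ library. Against a floor of 3 counts over the NOZ group, the summed counts scaled to library size were 8.60-fold higher in NOZ-R, and the 95% counting limit puts the increase at 6.47-fold or more. The gene fell under the filter for the test. HLA-DPA1 and HLA-DPB1 lie head to head and share 1.67% and 3.44% of their exonic bases on opposite strands. NOZ-R replicate 2 was the highest and NOZ-R replicate 3 the lowest of the NOZ-R libraries.

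HLA-DQB1 (chromosome 6, 32659467 to 32668383), the DQ beta chain, was listed with 0 counts in all 6 libraries. A count of 0 allows up to 0.0609 CPM over NOZ-R and 0.0567 CPM over NOZ. Its neighbour HLA-DQA1, the DQ alpha chain gene, and HLA-DQB2 were also at 0 throughout, and HLA-DQA2 had 2, 0 and 1 counts in NOZ-R and none in NOZ. No DQ transcript was therefore counted above 2 reads in any library, although the HLA-DQB1 and HLA-DQA1 promoters hold the X and Y boxes printed above. The HLA-DRB and HLA-DQ genes are highly polymorphic, and the sources used here do not state how reads from alleles unlike the reference were treated.

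The peptide-loading genes followed the classical chains. HLA-DMA (chromosome 6, 32948613 to 32969094), the alpha chain of the peptide exchanger HLA-DM, measured 11.3, 8.53 and 10.2 CPM in NOZ-R, against 2.69, 4.76 and 3.65 CPM in NOZ. NOZ replicate 2, the library that stood apart, had the highest NOZ value, and the lines still did not overlap. The log2 fold change was 1.44 ± 0.190 (± SE, adjusted p = 1.82e-05 by edgeR) and 1.68 without that library (adjusted p = 1.20e-07 by edgeR). HLA-DMA shares 2.17% of its exonic bases with BRD2 on the opposite strand, a gene with 14385 counts over NOZ-R and 9983 over NOZ.

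HLA-DMB (chromosome 6, 32934629 to 32941070), the HLA-DM beta chain, had 20, 19 and 12 counts in NOZ-R, against 4, 5 and 4 counts in NOZ. Its log2 fold change was 2.04 ± 0.418 (± SE, adjusted p = 0.000835 by edgeR). A further gene model, AL645941.2, lies on the same strand over parts of HLA-DMA and HLA-DMB and covers 9.41% of the exonic bases of HLA-DMB. It was listed with 0 counts over both lines.

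HLA-DOA (chromosome 6, 33004178 to 33009612), the alpha chain of the HLA-DM inhibitor HLA-DO, had 2, 3 and 4 counts in NOZ-R, against 0, 0 and 1 counts in NOZ. The summed counts of 9 in NOZ-R and 1 in NOZ gave a ratio of 9.68 (95% counting interval, 1.34 to 424.2), and the gene was too low to be tested. Its partner gene HLA-DOB, which was not among the 10, had 7, 10 and 15 counts in NOZ-R and 1, 2 and 1 counts in NOZ, a ratio of 8.60 (95% counting interval, 3.05 to 33.5). HLA-DRB5, a second DR beta chain gene, had 5, 3 and 5 counts in NOZ-R and 0, 2 and 1 counts in NOZ. Each of these minor genes was thus higher in NOZ-R by counts alone, at levels where a few reads set the value, and HLA-DRB6 was at 0.

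Without NOZ replicate 2 the log2 fold changes of the tested members were 1.22 for CIITA, 1.72 for CD74, 2.58 for HLA-DRA, 4.72 for HLA-DRB1, 4.32 for HLA-DPA1 and 2.13 for HLA-DMB. The highest adjusted p among them was 0.00217 (edgeR), for HLA-DMB.

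Per length, the order of the genes differed little between the lines. On the FPKM scale (counts scaled to library total and gene length), CD74 led with 51.6 ± 2.48 in NOZ-R and 16.5 ± 1.12 in NOZ, followed by HLA-DRA with 10.7 ± 1.24 in NOZ-R and 1.97 ± 0.283 in NOZ (SD, n = 3 each). HLA-DMA came next, at 3.80 ± 0.544 FPKM in NOZ-R and 1.54 ± 0.433 FPKM in NOZ. The ranges of HLA-DRA and HLA-DMA did not overlap in NOZ-R and overlapped in NOZ, so in NOZ their order was not beyond the spread.

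Further down, HLA-DRB1 and HLA-DPA1 had overlapping levels in NOZ-R, at 0.991 ± 0.338 and 0.979 ± 0.0353 FPKM, and also in NOZ, at 0.0599 ± 0.0393 and 0.0646 ± 0.0326 FPKM (SD, n = 3 each). CIITA, at 0.854 ± 0.0380 FPKM in NOZ-R and 0.382 ± 0.0328 FPKM in NOZ, lay below HLA-DPA1 in NOZ-R and above it in NOZ. Against HLA-DRB1 it lay within the range in NOZ-R, so that order was not beyond the spread, and above it in NOZ. HLA-DMB followed at 0.213 ± 0.0411 FPKM in NOZ-R and 0.0564 ± 0.00986 FPKM in NOZ, where its range overlapped that of HLA-DRB1. HLA-DPB1 and HLA-DOA overlapped in NOZ-R, at 0.0698 and 0.0450 FPKM. The deposited FPKM uses 1 fixed length per gene, which for CIITA is 22553 bases, longer than the 20757 bases that its GENCODE 29 exons cover together. A longer length gives a lower FPKM. The FPKM length also exceeded the exonic bases for HLA-DRB1 (3083 against 1229), HLA-DPB1 (6584 against 2791) and CD74 (4526 against 3184). The place of these genes in the order by FPKM thus depends on the lengths used.

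On the FPKM scale the alpha and beta chains were not at equal levels. HLA-DRA exceeded HLA-DRB1 by 8.05-fold, 15.6-fold and 10.9-fold in NOZ-R replicates 1 to 3 and by 129-fold, 22.3-fold and 24.0-fold in NOZ replicates 1 to 3, on the FPKM scale. NOZ replicate 1 rests on a single HLA-DRB1 count. The FPKM length of HLA-DRB1, 3083 bases against 1229 exonic bases, raises the HLA-DRA to HLA-DRB1 ratio, while that of HLA-DRA is 1244 against 1280. In counts, HLA-DRA had 260, 246 and 181 and HLA-DRB1 had 80, 39 and 41 in NOZ-R replicates 1 to 3. How reads from HLA-DRB alleles unlike the reference were treated is not stated in the sources used here. HLA-DMA exceeded HLA-DMB by 18.8-fold, 13.3-fold and 23.2-fold in NOZ-R and by 24.7-fold, 31.5-fold and 24.7-fold in NOZ.

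Relative to its transactivator, CD74 was higher in NOZ-R. The FPKM ratio of CD74 to CIITA was 61.0, 59.1 and 61.1 in NOZ-R and 42.6, 44.2 and 42.9 in NOZ, with no overlap between the lines. Relative to HLA-DRA, CD74 was lower in NOZ-R, with ratios of 4.91, 4.33 and 5.36 in NOZ-R and of 7.87, 7.26 and 10.4 in NOZ.

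The class II genes on chromosome 6 lie among neighbours that were also higher in NOZ-R. Between NOTCH4 and DAXX (32194843 to 33323016), 22 tested genes were not members. In NOZ-R 18 of the 22 rose and 0 fell, 81.8% against 51.3% of the tested chromosome 6 genes and 30.4% of all tested genes, with a median log2 fold change of 0.74. Among the 18, COL11A2 and PSMB8-AS1 passed the count filter only through NOZ-R, so their rise was built into it. Over the alternative settings the count of higher genes ranged from 12 to 19. The median of all tested chromosome 6 genes was 0.33, compared with 0.22 on chromosome 16, where CIITA lies, and -0.05 on chromosome 5, where CD74 lies.

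Among the chromosome 6 members that reached the count filter in every library, HLA-DMA was at 1.44 and HLA-DRA at 2.55. HLA-DMB, HLA-DPA1 and HLA-DRB1 reached it in NOZ-R alone, so their place beside the neighbours was built into the filter. The largest values among the other tested genes of the region were those of the class I peptide transporter gene TAP1 at 2.54 and the immunoproteasome gene PSMB9 at 2.01, which lie between HLA-DRB1 and HLA-DMB, and of the collagen gene COL11A2 at 1.72. With 6, 18 and 5 counts in NOZ, COL11A2 also passed the filter only through NOZ-R. BRD2, a bromodomain gene next to HLA-DMA, was at 0.63, and RXRB, a retinoid receptor gene beyond HLA-DPA1, was at 0.51. What part the general shift of the region had in the members' values was not tested.

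**Figure D3:**
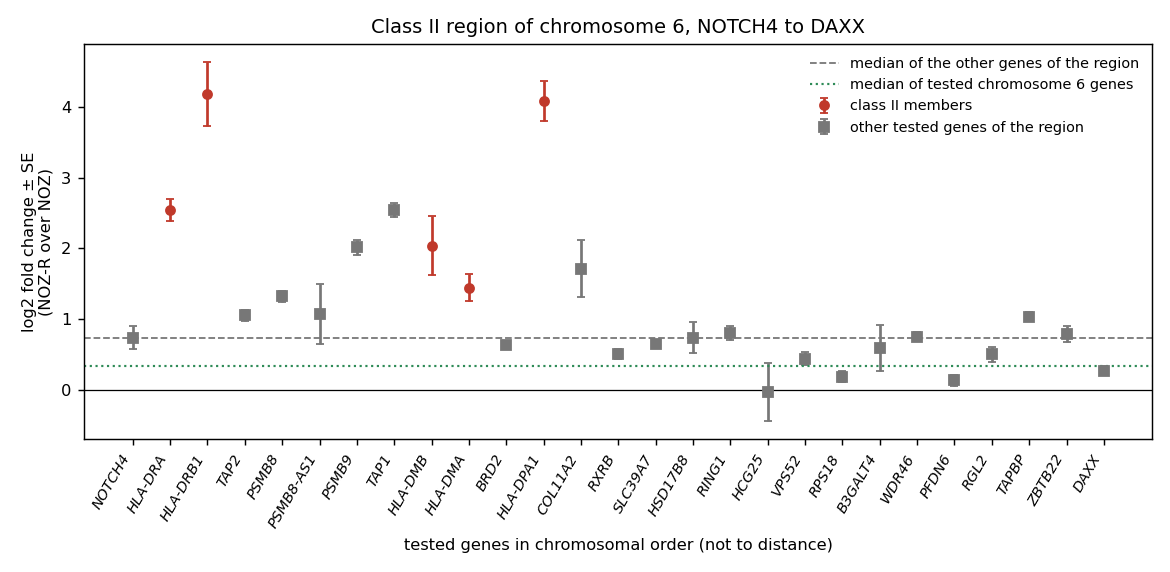
Log2 fold change of NOZ-R over NOZ with its SE for the 27 tested genes between NOTCH4 and DAXX, in chromosomal order. HLA-DMA at 1.44 and HLA-DRA at 2.55 are shown with HLA-DMB, HLA-DPA1 and HLA-DRB1, whose increase was built into the count filter, and lines mark the median of 0.74 of the other genes of the region (dashed) and of 0.33 of all tested chromosome 6 genes (dotted).

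Of 7 genes of the complex that binds class II promoters, 2 rose, 2 fell and 3 missed the threshold, shares close to the 30.4% higher and 29.8% lower among all tested genes, and the list had a median log2 fold change of -0.16 against -0.01 over all tested genes. RFX5, the DNA-binding subunit of the RFX complex, measured 75.5 CPM in NOZ-R and 62.8 CPM in NOZ, or 0.27 ± 0.0624 on the log2 scale (± SE, adjusted p = 0.00220 by edgeR). RFXAP, a second subunit, fell to 7.27 CPM in NOZ-R, against 14.7 CPM in NOZ, or -1.01 ± 0.112 on the log2 scale (± SE, adjusted p = 3.42e-06 by edgeR). RFXANK, the third subunit, was at -0.26 on the log2 scale (adjusted p = 0.0145 by edgeR), with overlapping libraries. Its call was lost without NOZ-R replicate 1 or 2 or NOZ replicate 1 or 3 (adjusted p between 0.0547 and 0.0831 by edgeR). The NF-Y subunit NFYC rose by 0.56. Scaled by library size alone, which shifts the median of all genes by -0.13, 1 gene of the complex was higher and 5 were lower.

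Along the interferon-gamma route to CIITA, both receptor chains were higher, IFNGR2 by a small amount, JAK2 was lower, and the cytokine itself had no counts. The list of 13 genes includes the negative regulators SOCS1, SOCS3 and PTPN2. Of the 13, 10 were tested, of which 8 rose, 1 fell and 1 missed the threshold. The median log2 fold change was 0.38, beside 30.4% higher and 29.8% lower among all tested genes. The count of higher genes lay between 4 and 8 over the alternative settings. IFNG and IRF8 were at 0 in all libraries.

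IFNGR1, the ligand-binding receptor chain, measured 67.9 CPM in NOZ-R and 19.6 CPM in NOZ, or 1.80 ± 0.0949 on the log2 scale (± SE, adjusted p = 2.34e-09 by edgeR). The second chain, IFNGR2, measured 39.2 CPM in NOZ-R and 33.3 CPM in NOZ, or 0.24 ± 0.0844 (± SE, adjusted p = 0.0268 by edgeR). IRF1, an interferon-induced factor that acts on the CIITA promoter, rose by 1.06 ± 0.103 (± SE, adjusted p = 1.07e-06 by edgeR). JAK2, the kinase tied to the second receptor chain, fell to 17.3 CPM in NOZ-R, against 40.9 CPM in NOZ, or -1.25 ± 0.134 on the log2 scale (± SE, adjusted p = 2.64e-06 by edgeR). JAK2 was thus the only tested gene of the route called lower, beside 8 called higher. The negative regulator PTPN2, at 0.33 on the log2 scale (adjusted p = 0.00203 by edgeR), is among those 8.

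Of 13 chromatin regulators known to act at CIITA or class II promoters, 3 rose, 4 fell and 6 missed the threshold, at a median log2 fold change of 0.04. These shares were near the 30.4% higher and 29.8% lower among all tested genes. The histone acetyltransferase genes KAT2B, CREBBP and EP300 rose by 0.70, 0.70 and 0.55. EZH2, the methyltransferase of the repressive mark H3K27me3, fell to 86.2 CPM in NOZ-R, against 135.8 CPM in NOZ, or -0.66 ± 0.0602 on the log2 scale (± SE, adjusted p = 5.83e-07 by edgeR). The DNA methyltransferase gene DNMT3B had a log2 fold change of -1.13 and the arginine methyltransferase gene CARM1 one of -0.38 (adjusted p = 5.07e-06 and 0.000213 by edgeR).

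Genes of the endosomal steps that follow class II assembly were mostly higher by small amounts. Of 13 genes that trim the invariant chain, process antigen or inhibit the proteases, 11 were tested, of which 8 rose, 1 fell and 2 missed the threshold, at a median log2 fold change of 0.37, where 30.4% of all tested genes were higher. The count of higher genes lay between 5 and 9 over the alternative settings. CTSS, the protease that trims the invariant chain in antigen-presenting cells, measured 12.7, 13.9 and 12.4 CPM in NOZ-R and 7.78, 5.92 and 5.48 CPM in NOZ, or 1.01 ± 0.139 on the log2 scale (± SE, adjusted p = 2.79e-05 by edgeR).

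The aspartic protease gene CTSD rose by 0.91 and SPPL2A, which cleaves the remaining membrane stub of CD74, rose by 0.73 ± 0.0739 (± SE, adjusted p = 1.56e-06 by edgeR). CTSV, a protease of thymic epithelium, was at -0.47 on the log2 scale (adjusted p = 0.0364 by edgeR). That call did not hold in 9 of 17 alternative settings, among them those without NOZ-R replicate 2 or 3 or NOZ replicate 2 or 3 (adjusted p between 0.0534 and 0.150 by edgeR). The thiol reductase gene IFI30 was listed at 0 in all NOZ-R libraries and at 2, 0 and 0 counts in NOZ, and 40.2% of its exonic bases are shared with another gene model.

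Of 4 genes tied to ubiquitination of class II molecules, 3 were lower and 1 was higher, where 29.8% of all tested genes were lower and 30.4% higher, with a median log2 fold change of -0.47. MARCHF1 and MARCHF8, ubiquitin ligases that remove class II from the surface, had log2 fold changes of -0.63 ± 0.200 and -0.31 ± 0.101 (± SE, adjusted p = 0.0145 and 0.0169 by edgeR). The MARCHF1 call was lost without NOZ-R replicate 2 or NOZ replicate 2 (adjusted p = 0.0656 and 0.0544 by edgeR) and the MARCHF8 call without NOZ-R replicate 1 (adjusted p = 0.103 by edgeR). The ubiquitin-conjugating enzyme gene UBE2D1 changed by -1.05 (adjusted p = 3.53e-06 by edgeR). UBE2D3 was at 0.15, a call that did not hold in 9 of 17 settings, among them those without NOZ-R replicate 2 or 3 or NOZ replicate 1 (adjusted p between 0.0538 and 0.102 by edgeR). The count of lower genes lay between 1 and 3 over the alternative settings.

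Of the genes through which CD74 signals, CD44, its co-receptor, was the only one with enough counts to be tested. It rose by 0.50 ± 0.0440 (± SE, adjusted p = 4.29e-07 by edgeR), with 1210 CPM in NOZ-R and 857.7 CPM in NOZ. The chemokine receptor genes CXCR2, CXCR4 and ACKR3 had at most 1 count in any library. MIF, the ligand, was listed with 1, 0 and 0 counts in NOZ-R and 2, 2 and 0 counts in NOZ. As 61.95% of its exonic bases are shared with models on the opposite strand, its counts are not read as a level.

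Genes listed for T cell costimulation and adhesion, checkpoint ligand genes among them, were mostly higher, with the classical B7 genes at the floor. Of 12 genes, 8 were tested, of which 7 rose and 1 fell, at a median log2 fold change of 0.91, where 30.4% of all tested genes were higher. The 7 include the checkpoint ligand genes PDCD1LG2 and CD274, so they are not a count of costimulatory genes alone. CD274, which encodes PD-L1, was at 0.30 on the log2 scale (adjusted p = 0.00717 by edgeR). The count of higher genes lay between 4 and 8 over the alternative settings. CD80 had at most 1 count and CD86 at most 2 counts in any library, and CD40 had 6, 3 and 7 counts in NOZ-R and none in NOZ. LGALS9, galectin-9, measured 7.72 CPM in NOZ-R and 0.419 CPM in NOZ, or 4.19 ± 0.244 on the log2 scale (± SE, adjusted p = 6.42e-09 by edgeR). It had 6, 10 and 6 counts in NOZ and reached the count filter in NOZ-R alone, so its difference was built into the filter.

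TNFSF9, the ligand of the costimulatory receptor CD137, rose by 1.73 ± 0.119 (± SE, adjusted p = 3.27e-08 by edgeR) and PDCD1LG2, the checkpoint ligand PD-L2, by 1.44 ± 0.272 (± SE, adjusted p = 0.000435 by edgeR). TNFSF4, the OX40 ligand, fell to 10.3 CPM in NOZ-R, against 53.4 CPM in NOZ, or -2.37 ± 0.0999 on the log2 scale (± SE, adjusted p = 2.50e-10 by edgeR). The 2 costimulatory ligands of the TNF family thus moved in opposite directions.

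The class I counterparts were higher as well. NLRC5, the class I transactivator and a relative of CIITA, measured 61.0 CPM in NOZ-R and 18.4 CPM in NOZ, or 1.73 ± 0.0912 on the log2 scale (± SE, adjusted p = 2.42e-09 by edgeR). All 13 tested genes of this list were higher, against 30.4% of all tested genes, and all 13 were also higher under each of the 17 alternative settings. Their median log2 fold change was 1.45, led by TAP1 at 2.54, HLA-F at 2.43 and HLA-B at 2.04. TAP1, TAP2, TAPBP, PSMB8 and PSMB9 were also counted above among the neighbours in the class II region, so these counts are not separate.

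**Figure D4:**
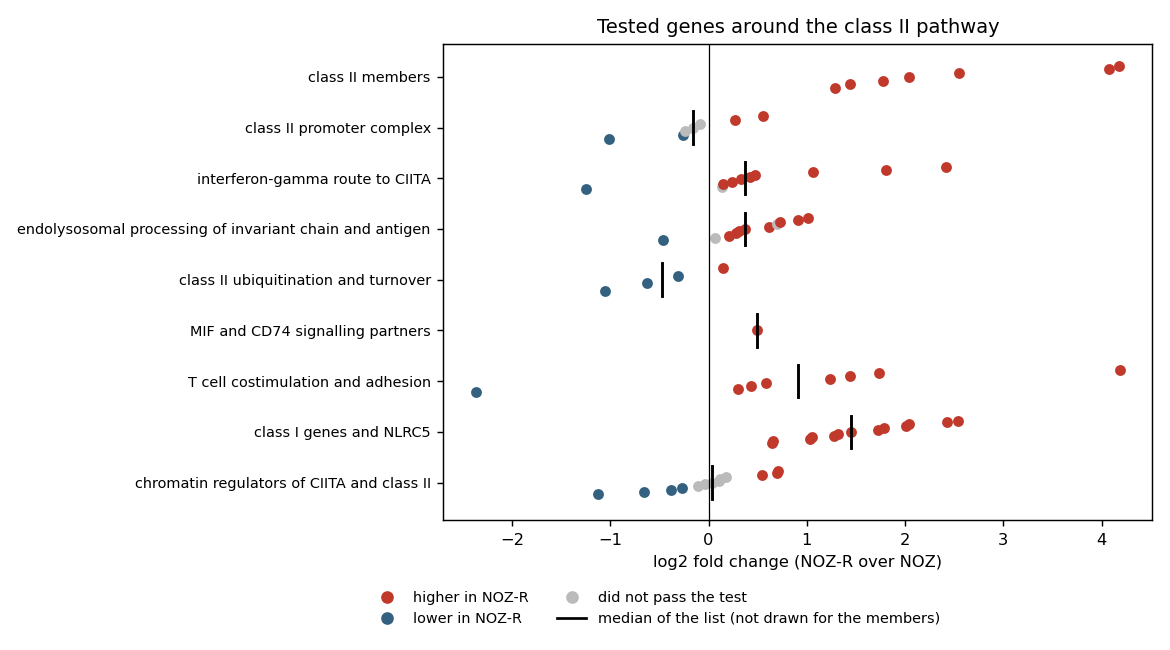
Log2 fold change of NOZ-R over NOZ for the tested genes of each list, with the class II members in the top row, points coloured by the edgeR call at an adjusted p of 0.05 and vertical lines at list medians. The members lie between 1.29 and 4.18, with HLA-DMB, HLA-DPA1 and HLA-DRB1 past the count filter in NOZ-R alone. The promoter complex lies on both sides of 0 with a median of -0.16, and the class I list lies wholly above 0.

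Cells that express class II constitutively were looked for by their markers. Of 15 dendritic cell and macrophage markers, 4 were tested, of which CSF1R and LYZ rose and 2 missed the threshold. CSF1R had 12, 8 and 7 counts in NOZ and LYZ 7, 6 and 8. Both passed the count filter only through NOZ-R, so their rise was built into it. The summed level of the 15 markers ranged from 7.36 to 9.16 CPM over NOZ-R libraries and from 4.15 to 7.13 CPM over NOZ libraries. CD68, which is in this sum, had at most 1 count in any library. As 85.8% of its exonic bases are shared with other gene models, its counts are not read as a level. CD1C, FLT3, CLEC9A and CD163 were at 0 in every library. PTPRC, which encodes the pan-leukocyte protein CD45, had 4, 2 and 5 counts in NOZ-R and 28, 14 and 7 counts in NOZ. In the other direction, ITGAM had 8, 7 and 2 counts in NOZ-R and 0, 1 and 1 counts in NOZ.

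The 6 B cell markers summed to 4.64 to 5.76 CPM over NOZ-R libraries and to 5.81 to 9.62 CPM over NOZ libraries, with MS4A1 and CD79B at 0 in every library. One of the 2 tested, PAX5, was higher in NOZ-R and the other, CD79A, was lower. PAX5 had 7, 7 and 5 counts in NOZ and reached the count filter in NOZ-R alone, so its rise was built into the filter. The 5 T cell markers summed to at most 1.67 CPM in any NOZ-R library and 0.473 CPM in any NOZ library. CD4, the only 1 tested, was called higher. It had 12, 21 and 14 counts in NOZ-R and 6, 4 and 2 counts in NOZ, and passed the count filter only through NOZ-R. The 4 endothelial markers summed to between 9.05 and 10.1 CPM over NOZ-R libraries and between 2.38 and 2.69 CPM over NOZ libraries. Most of this came from PECAM1, with VWF at most at 2 counts in any library. PECAM1 was called higher, at 2.29 ± 0.156 on the log2 scale (± SE, adjusted p = 3.01e-08 by edgeR). It had 155, 152 and 144 counts in NOZ-R and 39, 33 and 27 counts in NOZ. The 5 fibroblast markers summed to between 1.55 and 2.28 CPM over NOZ-R libraries and between 0.249 and 0.608 CPM over NOZ libraries. PDGFRB, the only 1 tested, missed the threshold. DCN had 19, 12 and 6 counts and LUM 5, 6 and 14 counts in NOZ-R, and both had 0 in every NOZ library. The part of these markers' cells in the members' difference was not tested.

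The 5 genes outside the lists whose log2 CPM profile over the 6 libraries was closest to that of CD74 were CCN1, MRC2, SLC6A9, ITGA5 and SLC7A5. The root mean square difference of their centred profiles ranged from 0.0351 for CCN1, a matricellular protein gene, to 0.0618 for SLC7A5, an amino acid transporter gene. Since the profile is in essence a single step between the lines, the likeness is mainly one of step size. CCN1 itself measured 300.9 CPM in NOZ-R and 90.0 CPM in NOZ.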

How the data were processed

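RNA-seq libraries from NOZ-R and NOZ cells (3 each) were compared. The authors deposited counts per gene, which are whole numbers and not normalized, and FPKM values for the same 63140 genes, each of which is the count scaled by library total and by 1 fixed length per gene. The submitters' processing notes name fastp 0.22.0 and GRCh38. Aligner, counting tool, strand setting and annotation were not given in the sources used here. No strand marking and no molecular identifiers appear in the protocols, per the labels, so antisense reads are not told apart and intervals and floors cover counting error only.

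Counts were filtered with filterByExpr, scaled with TMM factors (NOZ-R, 0.954 to 0.961, and NOZ, 1.04 to 1.05) and tested across all 14386 remaining genes with edgeR 4.0.16 (R 4.3.3) by its quasi-likelihood test, with Benjamini-Hochberg adjustment at 0.05. The SE is the log2 fold change divided by the square root of F. Floors are 3 counts over a group, and intervals are exact at 95%. Positions and exon overlap come from GENCODE 29, with RefSeq for symbols it lacks (13965 tested genes placed). Alternatives were other scalings and filters, DESeq2 1.42.0, limma 3.58.1 on FPKM with a pseudocount of 1 or 0.1 on the log2 scale, a replicate block, a stricter 0.01 threshold, sums over like genes and leaving out each library. The fit was tested on simulated data.

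Members and lists were chosen with earlier results of these data known. Named were the members, other class II genes with counts, RFX5, RFXAP, RFXANK, NLRC5, IRF1, up to 3 increases and 3 decreases past the test per list, and the 5 genes nearest to CD74. Untested genes, neighbours in the class II region and markers were named after their values were seen. Some genes that this rule names are not reported here.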

Additional observations from a re-analysis of the deposited data

How the results depend on the processing

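The 7 tested members were called higher under every scaling, under DESeq2's Wald test, under limma on both FPKM scales, at a threshold of 0.01, with the replicate number as a block and without each library in turn. The exception was a filter of 1 CPM in 3 libraries, which removed HLA-DMB and left 6 tested and 6 called. HLA-DRB1, HLA-DPA1 and HLA-DMB reached the main count filter in NOZ-R alone, so their repeated calls are not support in themselves. CIITA, CD74, HLA-DRA and HLA-DMA reached it in every library. With no filter 8 of 9 were called, HLA-DPB1 among them (edgeR adjusted p = 4.21e-05), while HLA-DOA did not pass (edgeR adjusted p = 0.154), and limma on log2(FPKM + 1) with no filter called 7 of 9, without either. Leaving out 1 library moved the log2 fold change of HLA-DRB1 between 3.69 and 4.72, of HLA-DPA1 between 3.67 and 4.32 and of HLA-DMA between 1.247 and 1.683. On log2(FPKM + 1) the value of HLA-DMB was 0.20 and that of HLA-DRB1 0.90. The pseudocount of 1 exceeds the level of HLA-DMB in every library and that of HLA-DRB1 in NOZ. In NOZ-R it is close to the HLA-DRB1 mean of 0.991 FPKM.

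Scaling by library size alone gave 3318 higher and 5465 lower genes, against 4379 and 4284 with TMM factors, and limma on log2(FPKM + 1) gave 3219 and 5298. Without a filter, limma gave 2901 higher genes. Among named genes, RFX5 lost its call in 2 of 17 settings, RFXANK in 5, CTSV and UBE2D3 in 9 each, MARCHF1 in 4 and MARCHF8 in 2. The causes were not tested. Same-numbered libraries did not deviate together (correlations of 0.0682, -0.0224 and -0.0365 for replicates 1 to 3). Whether they share a culture or batch is not stated in the labels, and these correlations cannot decide it. With the replicate block 4324 genes were higher and 4180 lower. At this depth HLA-DPB1, HLA-DOA and the DQ genes each rest on 24 counts or fewer.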
